A study of Mus musculus with 42 samples.

Results

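The cytosolic ribosomal protein genes were taken as the protein-coding genes whose symbol begins with Rpl or Rps and a number, together with Rpsa, Rplp0, Rplp1 and Rplp2. Symbols of the ribosomal S6 kinases, genes named as pseudogenes, Rpl22 and its relative Rpl22l1 were left out by this rule. It found 84 genes among the 47729 in the files, 50 with a large-subunit name and 34 with a small-subunit name. No measured value was used to choose them. The rule also took in Rps19bp1 and Rpl7l1, which share the naming scheme but are not standard subunits of the ribosome. Fau and Rack1 encode ribosomal proteins under other names and were read beside the 84 genes.

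RNA came from the livers of 3 mice of the genotype Gfi1Cre/+;Rpl22HA/HA, which all groups share. In these mice Cre is made from a knock-in at Gfi1, and a cell in which Cre has acted, and its descendants, carry an HA tag on the ribosomal protein Rpl22. From each liver, total RNA of the homogenate (input) and RNA bound to ribosomes that an HA antibody pulled down (IP) were each made into libraries with 7 protocols, which gives 42 libraries. The protocols are TruSeq with 70 ng and with 4 ng of RNA (Tru70, Tru4), NEBNext (NEB), NuGEN Ovation (NuG) and SMARTer Stranded (SMTer) with 4 ng, and SMART-Seq v4 with 4 ng and with 0.25 ng (SMTseq4, SMTseq0.25). The mice were untreated and 30 days old by the protocol and the study's methods, whereas the stage label of the samples reads postnatal day 1. Livers without Cre were not analysed here.

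Each ribosomal protein is a structural part of the small or the large subunit, and cells make them in matched amounts. Most of their mRNAs are short, abundant and begin with a 5′ terminal oligopyrimidine (TOP) tract, a C followed by further pyrimidines, through which translation is held back or released with mTOR signalling and the binding protein Larp1. The genes also have many processed pseudogenes in the genome, and several have a second working copy. Liver is a tissue of high protein synthesis, in which hepatocytes make most of the RNA.

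Start sites are shown because the TOP tract is the feature that the mRNAs have in common. The sequences run from 10 bases before to 20 bases from the RefSeq gene start on GRCm38, and the capitals mark an unbroken run of pyrimidines that opens with C at the start:
Rplp2, chr7:141447641-141447670, plus strand: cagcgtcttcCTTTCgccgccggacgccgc
Rps6, chr4:86857348-86857377, minus strand: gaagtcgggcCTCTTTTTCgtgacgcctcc
Rpl28, chr7:4792955-4792984, plus strand: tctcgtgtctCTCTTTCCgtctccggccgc
Rps27, chr3:90213629-90213658, minus strand: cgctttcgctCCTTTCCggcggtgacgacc
Rps27rt, chr9:114982720-114982749, minus strand: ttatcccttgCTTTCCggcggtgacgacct
Rps27l, chr9:66946076-66946105, plus strand: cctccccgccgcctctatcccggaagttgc
A C at the start and at least 4 more pyrimidines were found in 14 of the 64 genes with a RefSeq window, 21.9%, against 3.01% of 27025 genes in the table. Of the 6 shown, Rps27l has no such run. The letters CTTTC stood within 50 bases of the start in 51.6% of the ribosomal protein genes and 14.6% of all genes on the gene's strand, and in 14.1% and 13.8% on the opposite strand. For CTTCC the shares were 45.3% and 22.2% on the gene's strand and 32.8% and 24.8% on the other. The annotated start can lie some bases from the start that a cell uses, so these shares describe the letters of the windows and not which mRNAs carry a tract.

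The Rps27 family is shown because Rps27l passed in more protocols than its relatives below. The coding sequences let a reader see how far reads can tell these genes apart. Rps27 (ENSMUSG00000090733, chr3:90212522-90213651, minus strand), Rps27l (ENSMUSG00000036781, chr9:66946086-66949516, plus strand) and the retrogene copy Rps27rt (ENSMUSG00000050621, chr9:114982366-114982739, minus strand) each have 252 coding bases without the stop codon, and capitals mark the bases that differ from Rps27:
Rps27: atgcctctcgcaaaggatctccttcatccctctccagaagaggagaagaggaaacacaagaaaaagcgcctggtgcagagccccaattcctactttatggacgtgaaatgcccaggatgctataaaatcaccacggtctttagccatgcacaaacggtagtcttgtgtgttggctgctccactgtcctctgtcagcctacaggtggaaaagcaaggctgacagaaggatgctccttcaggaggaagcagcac
Rps27l: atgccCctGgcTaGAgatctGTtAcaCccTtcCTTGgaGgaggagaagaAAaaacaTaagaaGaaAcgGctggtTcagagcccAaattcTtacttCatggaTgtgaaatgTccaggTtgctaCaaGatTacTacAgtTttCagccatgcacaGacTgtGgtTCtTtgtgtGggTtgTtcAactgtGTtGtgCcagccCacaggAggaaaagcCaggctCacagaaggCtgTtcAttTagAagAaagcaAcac
Rps27rt: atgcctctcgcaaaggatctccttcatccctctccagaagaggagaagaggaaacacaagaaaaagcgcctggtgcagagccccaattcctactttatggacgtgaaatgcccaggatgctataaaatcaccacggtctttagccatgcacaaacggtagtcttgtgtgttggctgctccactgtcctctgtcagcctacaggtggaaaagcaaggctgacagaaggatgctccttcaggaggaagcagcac
Rps27l differed from Rps27 at 60 bases, an identity of 76.2%, and Rps27rt at 0 bases. Rps27 and Rps27rt therefore cannot be told apart by reads within the coding sequence. The other relatives with an equal length were Rpl36al, 87.7% identical to Rpl36a, Rpl39l, 85.0% identical to Rpl39, and Rpl10l, 84.7% identical to Rpl10.

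Reads had been trimmed to 60 bases before alignment, so words of that length show what a read can place. A word of Rps6 (chr4:86854660-86857412), from coding base 471, occurs in transcripts of 10 other genes:
Rps6: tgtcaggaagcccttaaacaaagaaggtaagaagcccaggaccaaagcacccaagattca
A word of Rpl23a (chr11:78180932-78183584), from coding base 250, occurs in 17 other genes:
Rpl23a: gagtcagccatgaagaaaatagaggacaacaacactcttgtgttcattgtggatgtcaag
At least 1 word was shared with another gene's transcript by 80 of the 84 genes, and 48 shared over 50% of their words. The median share was 55.8%.

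The exon counts left out reads that matched several places, and in most protocols this touched the ribosomal protein genes more than others. The deposited RPKM values, which are scaled to length and to mapped reads, in contrast behaved as all alignments over the whole gene span with introns, which allowed the alignments of a gene to be set against its exon counts counted 2 times, since both reads of a pair align. In Tru70 input this ratio had a median of 1.19 over the ribosomal protein genes with at least 100 counts and 1.01 over other coding genes, and it was over 3 in 13.7% and 5.28% of them. In SMTseq4 input the medians were 4.99 and 1.08, in SMTseq0.25 input 5.60 and 1.08, and in NEB input 3.44 and 1.04. In NuG input they were 1.37 and 1.19, and the ratio was over 3 in a smaller share of the ribosomal protein genes, 6.38%, than of other coding genes, 8.24%. Rpl23a had 0 exon counts in Tru70 input although its RPKM there averaged 17.4. Rps6 had 25.7 alignments per 2 counts, Rpl17 68.6 and Rpl24 368. Spearman's rho between the share of common words and the ratio in Tru70 input was 0.504 over 80 genes. This is a correlation across genes of the same libraries, which are not independent. A low exon count of a ribosomal protein gene is thus no measure of a low mRNA level, and levels are given here for the part of each gene that reads could place.

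**Figure D1:**
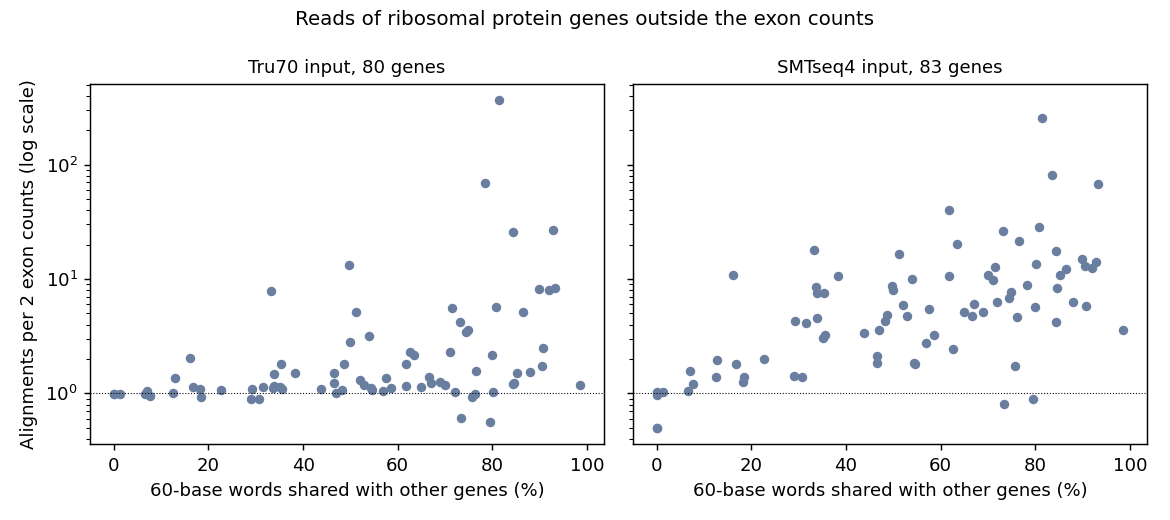
Alignments per 2 exon counts (log scale, vertical axis) against the share of 60-base words that the gene's mRNA has in common with other genes (%, horizontal axis), 1 point per ribosomal protein gene, in Tru70 input (80 genes) and SMTseq4 input (83 genes). The dotted line marks 1, at which each exon count had 2 alignments over the gene span, introns included. Values below 1 occurred, as for Rpl7a at 0.559 in Tru70 input. Points lie higher in SMTseq4, where the median over genes with at least 100 counts was 4.99, than in Tru70, where it was 1.19.

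The sum of counts over all genes ran from 3223153 to 45466334 in 36 libraries and was at most 762562 in the 6 SMTer libraries, in which the 84 genes had 178 to 497 exon counts per library and other coding genes 16.8 alignments per 2 exon counts in input, so that SMTer is given in RPKM. Within NEB, NuG, SMTer and Tru4, the study's own feature counts treat the replicate 3 library labelled input as IP, and the one labelled IP as input. These 8 libraries were used with the fraction exchanged. With the fractions as labelled, edgeR and limma called 0 genes of any kind in these 4 protocols, with 293, 91, 37 and 34 genes at an unadjusted p under 0.05 in NEB, NuG, Tru4 and SMTer. Marker genes show what the IP holds. The 8 hepatocyte markers made up 6.10% to 17.6% of counts in input and 1.89% to 3.05% in IP, and 7 or 8 of them passed the test as lower in each protocol. All 8 Kupffer cell markers passed as higher in the 6 count-based protocols and 7 of the 7 tested in SMTer, and their sum was 0.0188% to 0.0438% in input and 0.727% to 2.31% in IP. The 7 erythroid markers summed to 0.0369% to 0.251% in input and 1.65% to 22.6% in IP, with Slc4a1 at 0 in at least 1 input library. T cell markers summed to 0.0447 to 8.57 CPM (reads of the gene per 1000000 counts of the library) in input and 114 to 304 CPM in IP, neutrophil markers to 0 to 8.02 and 60.2 to 324 CPM, and endothelial markers to 102 to 203 and 255 to 809 CPM. The endothelial markers went both ways, with 1 of 6 higher and 3 lower in Tru70 (median −0.44), 2 and 3 in Tru4 and 2 and 4 in NuG (median −1.11), whereas their sum was higher in IP. Each T cell and each neutrophil marker was at 0 in at least 1 input library, and Ngp, Camp, Elane and Mpo also in at least 1 IP library. Since the IP and the input hold different cells, fewer cells of a type and less RNA per cell cannot be told apart in any comparison below.

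The first question was how much of each fraction the ribosomal protein genes made up. Their share of counts was higher in IP than in input in every mouse and each of the 6 protocols with usable counts. In Tru70 the shares were 0.554%, 0.488% and 0.529% in the input of mice 1, 2 and 3, and 0.936%, 0.572% and 0.666% in IP. Means were 0.524% ± 0.0331 and 0.725% ± 0.189 (SD, n = 3), a ratio of 1.38. The 3 IP libraries lay above all input libraries, and mouse 1 lay far above the other two.

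Tru4 gave 0.446%, 0.396% and 0.424% in input and 0.764%, 0.494% and 0.534% in IP, and NEB gave 0.356%, 0.400% and 0.376% in input and 0.555%, 0.531% and 0.530% in IP. In SMTseq4 the input shares were 0.323%, 0.294% and 0.348% and the IP shares 0.635%, 0.422% and 0.501%. SMTseq0.25 had 0.352%, 0.305% and 0.367% in input and 0.657%, 0.424% and 0.519% in IP. Mouse 1 had the highest IP share in each of these protocols, and fractions did not overlap. The ratios of means were 1.42 in Tru4, 1.43 in NEB, 1.61 in SMTseq4 and 1.56 in SMTseq0.25. A two-sided exact permutation test gave p = 0.1 in each of the 6 protocols, the smallest value that 3 against 3 libraries allow.

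NuG had the lowest shares, 0.127%, 0.121% and 0.122% in input and 0.263%, 0.226% and 0.220% in IP, with a ratio of 1.92. Genes of mitochondrial DNA took 57.6% to 59.0% of its input counts and 9.23% to 15.6% of its IP counts. As a share of nuclear protein-coding counts the NuG values were 0.313%, 0.304% and 0.311% in input and 0.342%, 0.262% and 0.257% in IP. On that base the fractions overlapped and the mean was lower in IP, with p = 0.4 by the exact permutation test. On the same base the exact permutation test gave p = 0.2 in Tru70 and 0.1 in the other protocols.

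**Figure D2:**
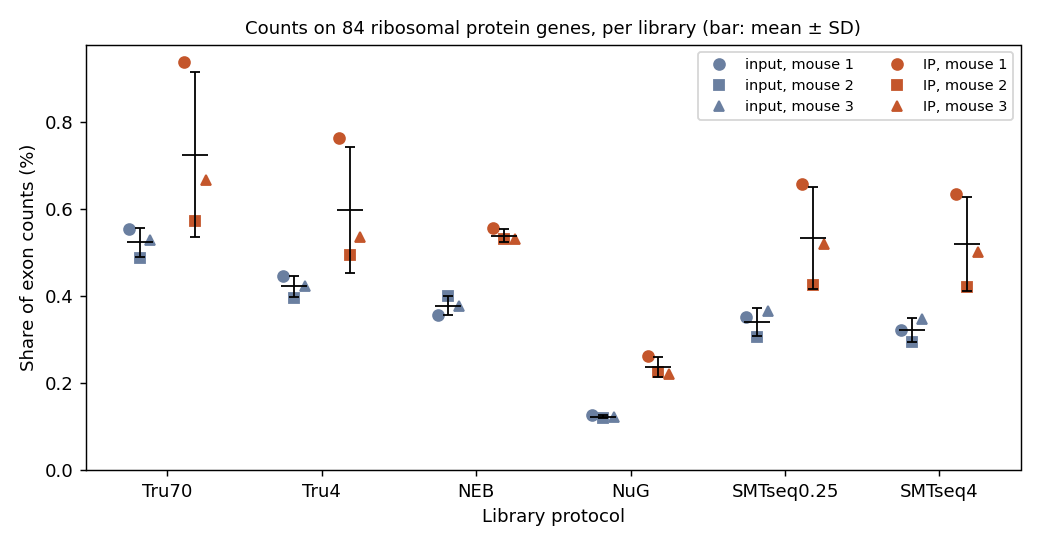
Share of exon counts on the 84 ribosomal protein genes (%, vertical axis, from 0) in each input and IP library of 6 protocols; symbols mark the mouse, and the horizontal and vertical bars the mean ± SD of 3 libraries. All IP points lie above the input points of their protocol, and mouse 1 is the highest IP library in each, at 0.936% in Tru70.

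The next question was which single genes differed between IP and input relative to other genes. Differences are given as log2 of IP over input after a scaling (TMM) that sets the typical gene to no change. In Tru70, 1 of the 78 genes tested passed as higher (1.28%) and 8 as lower (10.3%), where 18.1% and 16.7% of all genes tested passed in these directions. The single gene that rose was Rps9, and Rps2, Rplp0, Rpl7a, Rpl32, Rpl36, Rps7, Rps18 and Rps27l fell. The median over the 78 genes was 0.15, against −0.03 over all genes. Leaving out a mouse, whichever it was, left 0 to 2 genes higher and 2 to 4 lower, and with the mouse as a block 2 were higher. A gene whose adjusted p was 0.05 or more is given by its values only.

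The other count protocols gave the following. Tru4 had 6 higher and 6 lower of 80 (7.50% each), with 25.9% and 24.2% of all genes. SMTseq4 had 11 higher (13.6%) and 7 lower (8.64%) of 81, with 30.4% and 28.7% of all genes. In SMTseq0.25, 3 of 81 were higher and 2 lower, with 19.8% and 17.1% of all genes. NEB called 0 higher and 1 lower of 72 with edgeR, with 5.82% and 5.34% of all genes. An unadjusted p under 0.05 was found there for 5 of the 72 and for 2754 of all 12099 genes. DESeq2 called 1 higher and 2 lower in NEB. Without mouse 3, whose fractions were exchanged, Tru4 had 1 higher and 3 lower and NEB 0 and 0. Without mouse 1, Tru4 had 20 lower. SMTseq4 had 4 or 5 higher and 2 to 6 lower when a mouse was left out, and SMTseq0.25 1 or 2 higher and 1 lower. With the mouse as a block, Tru4 had 10 lower and NEB 0. The shares of ribosomal protein genes called thus lay below those of all genes in both directions in Tru70 and in these 4 protocols. Their medians were 0.09 in Tru4, 0.22 in SMTseq4, 0.25 in SMTseq0.25 and 0.01 in NEB.

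In NuG and SMTer the genes lay mostly on the lower side. NuG had 26 of 68 lower (38.2%) and 0 higher, with 20.9% and 24.0% of all genes, and a median of −0.61. An unadjusted p under 0.05 was found for 30 of the 68 genes and for 6390 of all 12406 genes. With library totals as the only scaling, the lower direction flipped in NuG, where 43 ribosomal protein genes then passed as higher, 0 as lower, and the median was 0.97. SMTer had 32 of 78 lower (41.0%) and 0 higher by limma on log2(RPKM + 1), with 27.2% and 24.3% of all genes, and a median of −0.50. There 40 of the 78 genes and 3279 of all 5580 genes had an unadjusted p under 0.05. Fold changes on the log2(RPKM + 1) scale understate those of low genes. Leaving out a mouse left 15 to 28 genes lower in NuG, 15 without mouse 3, and 4 to 12 in SMTer, 5 without mouse 3. Without median centring of the libraries, SMTer had 0 ribosomal protein genes called in either direction, while 652 of all 5580 genes passed as higher and 437 as lower. With the mouse as a block, 1 ribosomal protein gene passed as higher and 41 as lower in SMTer.

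The size of these differences depends on the scaling in every count protocol, since the typical gene had a higher CPM in IP. The median over the ribosomal protein genes changed sign in NuG alone. In the other count protocols it was above 0 under both scalings. Scaling by totals alone moved the median of all genes up by 0.43 in Tru70, 0.52 in Tru4, 0.48 in NEB, 0.48 in SMTseq0.25, 0.56 in SMTseq4 and 1.58 in NuG. Under it 16 ribosomal protein genes passed as higher and 1 as lower in Tru70, 21 and 1 in Tru4, 3 and 0 in NEB, 22 and 0 in SMTseq0.25, and 46 and 0 in SMTseq4. A fitted value near 0 here is therefore a gene whose CPM was higher in IP by about the shift named for its protocol. Where IP libraries of a gene are said below to lie above its input libraries in CPM, this shift is included. The share of all genes without overlap was not counted.

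**Figure D3:**
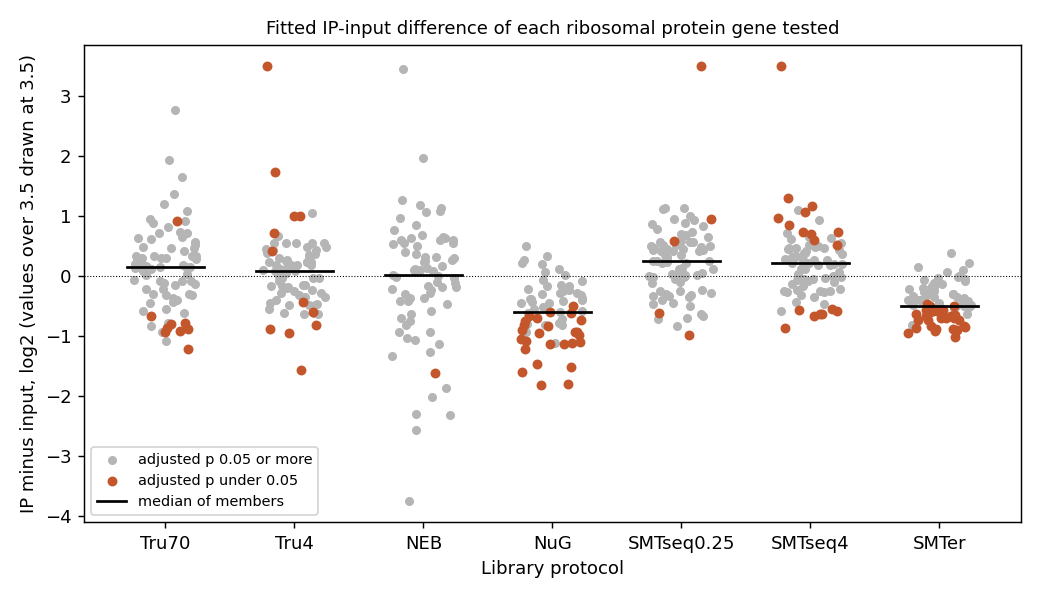
Fitted IP minus input difference (log2, vertical axis) of each ribosomal protein gene tested in 7 protocols; orange points passed the test at an adjusted p under 0.05, the black bar is the median, and values over 3.5 are drawn at 3.5. The medians lie between 0.01 and 0.25 in 5 protocols and at −0.61 in NuG and −0.50 in SMTer, where the genes that passed all lie below 0.

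Over the 7 protocols, 31 of the 84 genes passed in none, 11 passed as higher in at least 1, and 45 as lower in at least 1. In both counts are 3 genes, Rps12 and Rps13 among them. Of the 82 genes tested in at least 1 protocol this is 13.4% higher and 54.9% lower, where 34.0% and 33.0% of the 18238 genes tested anywhere passed as higher and as lower at least once. NuG and SMTer, with 26 and 32 genes, hold most of the lower calls. Of the 50 large-subunit genes 4 were higher and 25 lower somewhere, and of the 34 small-subunit genes 7 and 20. All 7 tests could be made for 62 genes. Rpl3l and Rpl10l passed the filter on low values nowhere, and Rpl24 only in SMTer. Rpl39l, among the 11 genes higher, passed that filter through its IP libraries, so its calls could only be higher.

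Among the most abundant genes in Tru70 input, per kilobase of mRNA, were Rpl8 with 607 CPM per kb, Rpl41 with 481, Rps15 with 420 and Rplp1 with 381, and the median was 35.0. Over 100 CPM were found for 15 of the 84 genes and under 1 CPM for 11, and the 10 highest held 52.2% of the counts. Rpl8, a large-subunit protein next to the catalytic centre, had 538, 483 and 530 CPM in Tru70 input. Rpl41, the smallest ribosomal protein, and Rps15, of the small subunit, had means of 210 CPM each that did not differ beyond their spread. Rpl8 and Rps15 passed in NuG alone, at −0.50 ± 0.18 (SE, adjusted p = 0.0339) and −0.93 ± 0.21 (adjusted p = 0.00213), and both turned with the scaling by totals, to 1.08 and 0.65. Rpl41 passed in none of the 7 protocols. In Tru70 its CPM was 235, 191 and 205 in input and 525, 184 and 208 in IP, where only mouse 1 stood above the input.

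Rps27l was the gene called in the most protocols. It encodes a small-subunit protein nearly like that of Rps27 and is known as a target of p53. It shares 18.4% of its 60-base words with other genes, where Rps27 shares 98.6% and Rps27rt 90.8%. Its CPM in Tru70 was 55.6, 50.7 and 63.9 in input and 52.1, 44.9 and 46.6 in IP. In SMTseq4 it was 290, 313 and 379 in input and 334, 261 and 364 in IP, and in NEB 55.6, 81.5 and 114 in input and 28.1, 29.4 and 55.7 in IP. The fractions overlapped in these CPM values, as they did in the other count protocols.

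Rps27l fell by 0.66 on the log2 scale in Tru70 (SE 0.22, adjusted p = 0.042), by 0.61 in Tru4 (adjusted p = 0.0383), by 1.62 in NEB (adjusted p = 0.0483) and by 1.51 in NuG (adjusted p = 5.99e-05). In SMTseq0.25 it fell by 0.62 (adjusted p = 0.0357), in SMTseq4 by 0.58 (adjusted p = 0.03) and in SMTer by 0.92 on the log2(RPKM + 1) scale (adjusted p = 0.00176). It was thus lower relative to the typical gene in 7 of 7 protocols, which share their 3 mice. With totals only the values were −0.24, −0.12, −1.14 and 0.06 in Tru70, Tru4, NEB and NuG and −0.15 and −0.03 in SMTseq0.25 and SMTseq4, and it was called in none. With the mouse as a block 6 of the 7 calls held, and NEB had an adjusted p of 0.053.

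Rps27 and its retrogene copy Rps27rt did not share the pattern of calls of Rps27l. Rps27rt had 31.9, 30.5 and 27.9 CPM in Tru70 input and 57.2, 38.4 and 35.7 in IP, all above the input, with a fitted difference of 0.15 ± 0.28 (adjusted p = 0.747). It passed in NuG alone, at −0.98 (adjusted p = 0.00261), and that value was 0.60 with totals only. Rps27 itself had 2.25, 1.89 and 1.5 CPM in Tru70 input and 9.07, 0.336 and 2.31 in IP, and it passed in no protocol. Its fitted difference in Tru70 was 0.74 with an SE of 1.12. The difference between Rps27l and either of these genes was not tested.

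Rps2 fell in 5 protocols. It encodes a small-subunit protein at the entry of the mRNA channel and shares 75.6% of its 60-base words with other genes. In Tru70 it had 131, 97.6 and 123 CPM in input and 69.4, 60.8 and 73.6 in IP, and in Tru4 228, 171 and 205 in input and 104, 83.1 and 99.9 in IP. All IP libraries lay below all input libraries in both, and also in SMTseq0.25, with 42.5, 38.7 and 43.8 against 25.7, 27.3 and 35.3. The fitted difference was −1.21 ± 0.20 in Tru70 (adjusted p = 0.00172), −1.56 ± 0.21 in Tru4 (adjusted p = 0.000231), −0.99 in SMTseq0.25 (adjusted p = 0.00761), −0.87 in SMTseq4 (adjusted p = 0.00244) and −0.83 in SMTer (adjusted p = 0.0384). NEB gave −1.03 (adjusted p = 0.0724) and NuG −0.79 (adjusted p = 0.269).

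Rps9, a small-subunit protein, was called higher in 4 protocols, and Rps3, of the same subunit, in 3. Rpl39l, described below, was also called in 3, but it was near absent in input, so its calls could only be higher. Rps9 and Rps3 were chosen after their values were seen. Rps9 (chr7:3703993-3706897, plus strand) had 286, 237 and 276 CPM in Tru70 input and 836, 516 and 639 in IP, and in SMTseq4 151, 128 and 150 in input and 463, 355 and 403 in IP. Its IP libraries lay above the input libraries in all 6 count protocols. The difference was 0.92 ± 0.26 in Tru70 (adjusted p = 0.0211), 0.72 in Tru4 (adjusted p = 0.034), 0.96 in SMTseq0.25 (adjusted p = 0.00901) and 0.98 in SMTseq4 (adjusted p = 0.00158). In NEB it was 0.77 (adjusted p = 0.0671), in NuG −0.06 and in SMTer 0.22. Rps3 had 332, 279 and 277 CPM in Tru70 input and 583, 527 and 590 in IP, again without overlap in all 6 count protocols. It rose by 0.42 in Tru4 (adjusted p = 0.0366), 0.58 in SMTseq0.25 (adjusted p = 0.0322) and 0.51 in SMTseq4 (adjusted p = 0.0181), and Tru70 gave 0.52 (adjusted p = 0.0555). NEB gave 0.56 (adjusted p = 0.249), NuG 0.02 (adjusted p = 0.942) and SMTer 0.39 (adjusted p = 0.112).

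**Figure D4:**
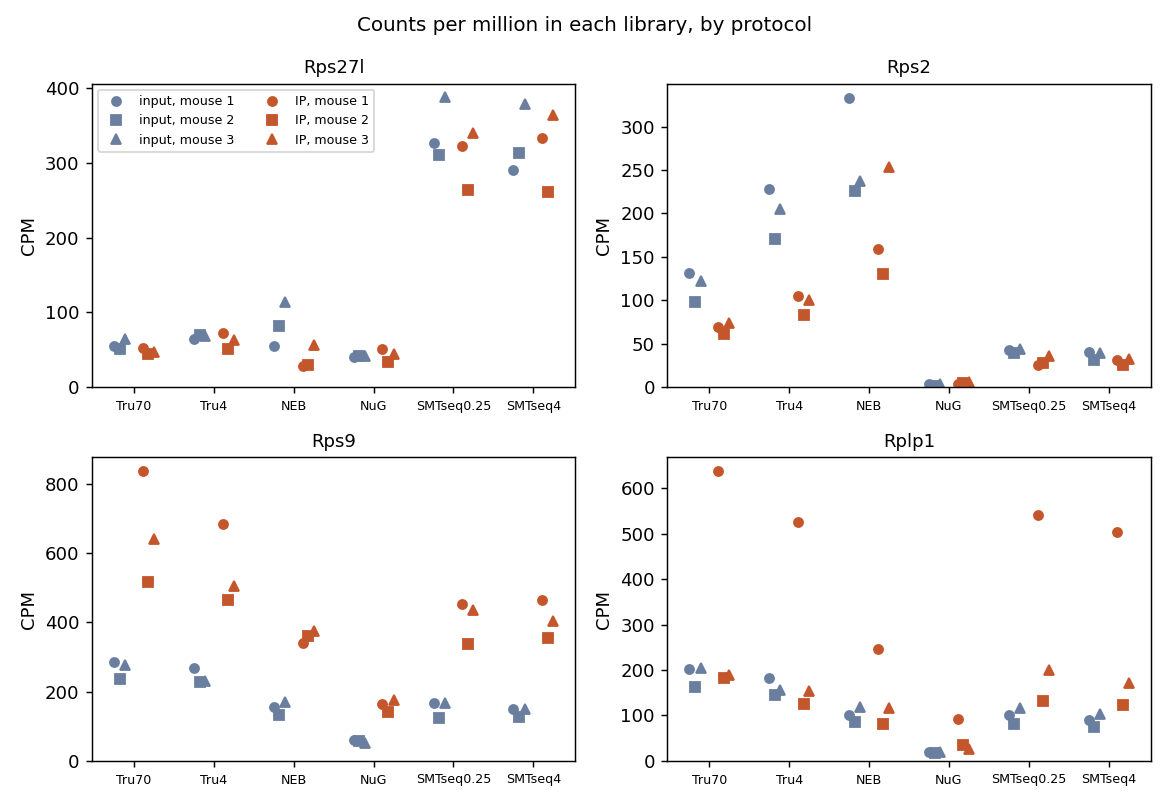
CPM without TMM scaling (vertical axes, from 0) of Rps27l, Rps2, Rps9 and Rplp1 in each input and IP library of 6 protocols. A symbol marks each mouse. Rps9 is higher in IP without overlap in every protocol, Rps2 is lower without overlap in Tru70, Tru4 and SMTseq0.25, Rps27l overlaps in every protocol, and Rplp1 stands out in the IP of mouse 1, at 637 CPM in Tru70.

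The P-stalk is the flexible arm of the large subunit that recruits translation factors, made of Rplp0 with copies of Rplp1 and Rplp2. The calls of its 3 genes differed between protocols, and the difference between the genes was not tested. In NuG and SMTer all 3 fitted values lay below 0 and in NEB all 3 above 0. Rplp0 had 256, 341 and 281 CPM in Tru70 input and 217, 192 and 230 in IP, all below the input. It fell by 0.88 there (adjusted p = 0.0078), by 0.81 in Tru4 (adjusted p = 0.00349), by 1.08 in NuG (adjusted p = 0.00212) and by 1.02 in SMTer (adjusted p = 0.00213), and the NuG value became 0.52 with totals only. Rplp1 had 202, 163 and 205 CPM in Tru70 input and 637, 182 and 189 in IP, where mouse 1 alone stood apart. It passed in no protocol, with values from −0.81 in SMTer to 1.14 in SMTseq0.25. Rplp2 had 13.7, 10.1 and 17.9 CPM in Tru70 input and 59.2, 24.8 and 19.5 in IP, and it passed only in SMTseq4, at 0.70 (adjusted p = 0.045). Rpsa, a small-subunit protein also known as a laminin receptor, had 146, 114 and 126 CPM in Tru70 input and 273, 153 and 218 in IP, without overlap. It passed in SMTseq4, at 0.86 (adjusted p = 0.0365).

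Among other large-subunit genes that fell, Rpl32 had 137, 141 and 153 CPM in Tru70 input and 128, 65.8 and 102 in IP, with no overlap. Its difference was −0.94 in Tru70 (adjusted p = 0.0299), −1.81 in NuG (adjusted p = 5.98e-06), −0.62 in SMTseq4 (adjusted p = 0.0404) and −0.95 in SMTer (adjusted p = 0.00555). Rpl36 had 48.7, 39.1 and 45.3 CPM in Tru70 input and 30.5, 25 and 40.2 in IP, with a slight overlap in mouse 3, and fell by 0.91 (adjusted p = 0.0158). Rpl10, a late-joining protein of the large subunit, fell in SMTseq4 by 0.55 (adjusted p = 0.0311) and in SMTer by 0.88 (adjusted p = 0.0167). Its Tru70 CPM was 4.11, 3.4 and 4.98 in input and 0.753, 3.96 and 3.6 in IP, with overlap. Rpl27 passed nowhere. Rpl7a and Rps7, chosen after their values were seen, passed as lower in 4 protocols each, in Tru70 at −0.86 (adjusted p = 0.0358) and −0.80 (adjusted p = 0.04).

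The highest fitted differences in Tru70 belonged to genes with few counts. Rpl9 had 0.698, 0.385 and 0.343 CPM in input and 4.52, 2.18 and 6.45 in IP, without overlap, and its difference was 2.78 ± 0.98 (adjusted p = 0.0548). It rose in Tru4 by 1.0 (adjusted p = 0.0372) and in SMTseq4 by 1.07 (adjusted p = 0.0189). Rps13 had 0.62, 0.237 and 1.4 CPM in Tru70 input and 4.62, 2.05 and 2.7 in IP. It rose by 1.73 in Tru4 (adjusted p = 0.00714) and by 1.31 in SMTseq4 (adjusted p = 0.00706), whereas it fell by 0.50 in SMTer (adjusted p = 0.0263). Rps23, of the decoding centre, rose in Tru4 by 1.01 (adjusted p = 0.0255) and in SMTseq4 by 0.60 (adjusted p = 0.0458). Rpl17 and Rps28 passed in no protocol, and Rps28 was at 0 CPM in the Tru70 IP of mouse 3. These 5 genes share 51.1% to 86.5% of their 60-base words with other genes, and the part of this in the result was not tested.

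Rpl39l, a relative of Rpl39 best known from testis, was close to absent in input. Its exon counts in Tru4 were 1, 0 and 0 in input and 26, 29 and 40 in IP, and in SMTseq4 0, 0 and 1 in input and 53, 33 and 26 in IP. The ratio of CPM was 128 in Tru4, with a 95% exact interval of 22.4 to 5098, and 171 in SMTseq4, with an interval of 30.1 to 6828, both for counting error only. In SMTseq0.25 the input libraries were at 0 and the IP libraries at 5.22, 1.86 and 1.02 CPM, which is at least 21.3-fold higher when 3 counts per input library are taken as the limit. It was called higher in these 3 protocols. Since it passed the filter on low values through its IP libraries, a call could only be higher and is no separate support. In Tru70 the IP of mouse 1 had 2.94 CPM and the other 5 libraries 0, and in NEB the IP of mouse 2 had 8.45 CPM and the other 5 libraries 0.

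Of the other relatives, Rpl36al fell in NuG by 0.83 (adjusted p = 0.00174), which turned to 0.75 with totals only, and in SMTer by 0.69 (adjusted p = 0.00671). Rpl7l1 fell in SMTseq4 by 0.63 (adjusted p = 0.0107). Its CPM there was 79.8, 82.5 and 70.2 in input and 53.5, 82.9 and 85.2 in IP, with overlap. Rpl10l had 0 counts in all libraries, and Rpl3l, a muscle relative of Rpl3, had at most 1.05 CPM in the 6 count protocols. Fau, whose product is cut to a small-subunit protein, fell in Tru4 alone, by 0.65 (adjusted p = 0.0437). Rack1, a scaffold on the small subunit, had 573, 542 and 628 CPM in Tru70 input and 688, 587 and 736 in IP, and it passed nowhere.

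The next question was whether mice differed. Mouse 1 had the highest median difference over the ribosomal protein genes in all 7 protocols. The medians of mice 1, 2 and 3 were 0.58, −0.21 and −0.24 in Tru70, 0.48, −0.29 and −0.40 in Tru4, and 0.17, −0.17 and −0.23 in NEB. They were 0.55, −0.01 and 0.01 in SMTseq0.25, 0.56, −0.01 and −0.07 in SMTseq4, −0.36, −0.60 and −0.93 in NuG, and −0.32, −0.40 and −0.70 in SMTer. In Tru70, 51 of the 78 genes were higher in the IP of mouse 1, 25 in mouse 2 and 23 in mouse 3. The median difference over all genes tested there was −0.07, −0.04 and −0.04 in mice 1, 2 and 3. In SMTer it was −0.08, −0.11 and −0.14. In NEB it was −0.32 in mouse 1 and 0.25 in mouse 3, so the NEB medians by mouse do not refer to a typical gene at 0. The protocols measured the same RNA of each mouse, so this order is that of 3 animals seen repeatedly and carries no test.

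Without mouse 1 the median over the genes turned below 0 in Tru70 (−0.22), Tru4 (−0.27), NEB (−0.36), SMTseq0.25 (−0.03) and SMTseq4 (−0.03), and it was −0.79 in NuG and −0.36 in SMTer. Across the 6 count protocols, Rplp1 exceeded the mean of the other mice by 1.59 in mouse 1, on the log2 scale of IP over input CPM with 0.5 added, Rps24 by 1.43, Rpl10a by 1.38, Rpl41 by 1.14 and Rpl34 by 1.12. These 5 were the only genes over 1. In the other direction Rpl21 lay at −1.92 and Rpl12 at −1.13. The excess was above 0 for 57 of the 84 genes, with a median of 0.26. These ratios were not scaled by TMM, and the share of all genes above 0 was not counted. The count alone therefore does not show whether the excess is particular to these genes. The erythroid marker sum was 22.6%, 16.3% and 12.9% of counts in the Tru70 IP of mice 1, 2 and 3. It was highest in the IP of mouse 1 in 5 of the 6 count protocols, and also in its input in 5 of 6. The neutrophil markers were highest in the IP of mouse 1 in 5 of 6 protocols too. Hepatocyte markers were so in 2, and Kupffer cell, T cell and endothelial markers in 0. The part of these cells in the result was not tested.

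**Figure D5:**
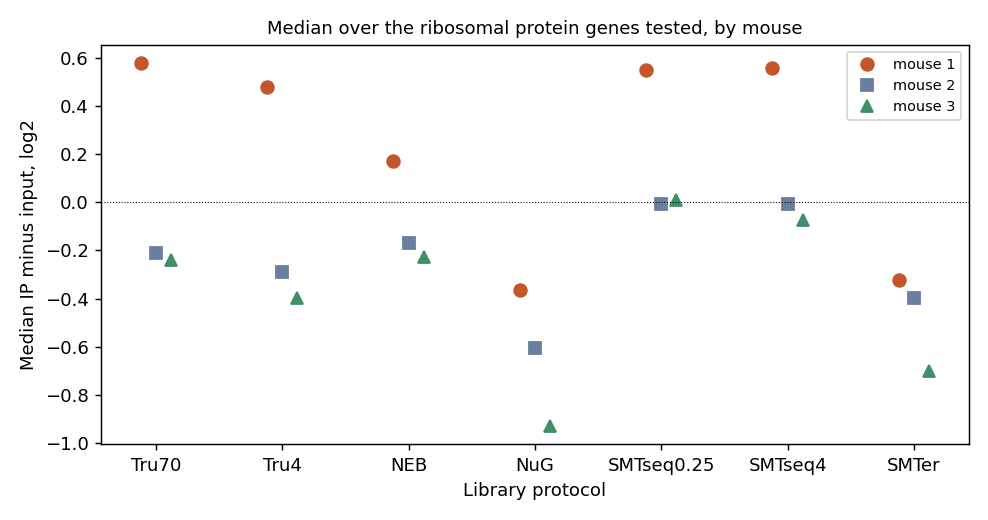
Median IP minus input difference over the ribosomal protein genes tested (log2, vertical axis) for each mouse in 7 protocols. The typical gene was not near 0 in every mouse. In NEB the median over all genes tested was −0.32 in mouse 1 and 0.25 in mouse 3. Mouse 1 is the highest in each protocol, at 0.58 in Tru70, where mice 2 and 3 lie at −0.21 and −0.24.

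The protocols were compared by testing whether the IP minus input difference departed from that in Tru70. No ribosomal protein gene departed in Tru4 (80 tested), NEB (80), NuG (80), SMTseq0.25 (82) or SMTseq4 (81) with edgeR, while 1, 3, 29, 2 and 6 had an unadjusted p under 0.05. Of all genes, in the same order, 830 of 16644, 982 of 15346, 2032 of 16114, 1950 of 16190 and 2602 of 16504 had such a p. Over all genes, 0% passed as higher and 0% as lower in Tru4, 0.00652% and 0% in NEB, 0.130% and 0.149% in NuG, 0.161% and 0.00618% in SMTseq0.25, and 0.345% and 0.0242% in SMTseq4. The median departure was −0.11 in Tru4, −0.06 in NEB, −0.80 in NuG, 0.18 in SMTseq0.25 and 0.19 in SMTseq4. In SMTer, 2 of 81 genes departed downward and 0 upward, by limma on RPKM, where 5.26% and 6.02% of all genes did. An unadjusted p under 0.05 was found for 22 of the 81 and for 2698 of all 9295 genes. The 2 genes were Rpl12 and Rps19bp1. With the mouse as a block 9 genes departed downward in SMTer and 1 in NuG. A departure that did not pass does not show that the protocols gave the same value.

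Mitochondrial ribosomal proteins are built into a separate ribosome, and their genes served as the nearest set. Of their 78 genes, 76 were tested in Tru70, where 2 passed as higher and 20 as lower, with a median of −0.38. That is 2.63% and 26.3%, beside 18.1% and 16.7% of all genes. In SMTseq4 2 were higher and 44 lower of 76 (median −0.67), in SMTseq0.25 0 and 39 of 76 (−0.67), in Tru4 2 and 29 of 76 (−0.48), in NuG 1 and 30 of 73 (−0.70), in NEB 0 and 0 of 74 (−0.45) and in SMTer 0 and 15 of 30 (−0.41). The shares lower were 57.9% in SMTseq4, 51.3% in SMTseq0.25, 38.2% in Tru4, 41.1% in NuG and 50% in SMTer, beside 28.7%, 17.1%, 24.2%, 20.9% and 27.2% of all genes. Their medians thus lay below those of the cytosolic genes in all protocols but SMTer. The difference between the 2 sets was not tested.

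Other mRNAs known to carry a TOP tract encode translation factors and a few further proteins. Of 14, 0 passed as higher and 4 as lower in Tru70 (median −0.20), 1 and 6 in Tru4 (−0.21), 0 and 1 in NEB (0.01), 0 and 4 in NuG (−0.41), 3 and 2 in SMTseq0.25 (0.17), and 3 and 4 in SMTseq4 (0.18). In SMTer 2 of 12 were higher and 2 lower. In Tru70 the share lower was 28.6%, beside 16.7% of all genes, and with 14 genes a single call moves it by 7.14 percentage points. It was 42.9% in Tru4 beside 24.2%, 28.6% in NuG beside 20.9% and 7.14% in NEB beside 5.34%. In SMTseq4 it was 28.6% beside 28.7%, in SMTseq0.25 14.3% beside 17.1% and in SMTer 16.7% beside 27.2%. The elongation factors Eef1a1 and Eef2 fell by 1.03 and 0.94 in Tru70, and Tpt1 by 1.64. Regulators of TOP mRNA translation showed 1 higher and 3 lower of 11 tested in Tru70, 2 and 7 in Tru4, 0 and 0 in NEB, 3 and 1 in NuG, 0 and 1 in SMTseq0.25, 1 and 3 in SMTseq4, and 1 and 0 of 4 in SMTer. The kinase gene Mtor fell by 2.0 in Tru70, and Larp1 had a difference of 0.02. The Tru70 share of regulators lower was 27.3%, again beside 16.7%. It was 63.6% in Tru4 beside 24.2%, 27.3% in SMTseq4 beside 28.7% and 9.09% in SMTseq0.25 beside 17.1%. In NuG 9.09% were lower and 27.3% higher, beside 20.9% and 24.0%. In NEB and SMTer 0% were lower, beside 5.34% and 27.2%. Ribosome biogenesis genes had 4 higher and 0 lower of 20 in Tru70, 5 and 2 in Tru4, 1 and 0 in NEB, 2 and 2 of 19 in NuG, 4 and 0 in SMTseq0.25, 5 and 2 in SMTseq4, and 3 and 1 of 8 in SMTer. In Tru70 20% were higher, close to the 18.1% of all genes. The share higher was 25% in Tru4 and SMTseq4, beside 25.9% and 30.4%, and 20% in SMTseq0.25 beside 19.8%. In NEB it was 5% beside 5.82%, in NuG 10.5% beside 24.0% and in SMTer 37.5% beside 24.3%. Polr1a, the largest subunit of RNA polymerase I, rose by 1.45 in Tru70.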

How the data were processed

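Total RNA of liver homogenate and RNA of HA-tagged ribosomes was sequenced in 42 libraries from 3 mice. The authors removed adapters, trimmed reads to 60 bases, aligned each library to GRCm38 with TopHat and counted reads on Ensembl exons with HTSeq and Bedtools. The deposited exon counts are whole numbers per gene without normalization, and reads with several alignments are left out of them. The deposited RPKM values were tested here and gave whole numbers, within 0.02, when read as alignments per kilobase of the whole gene span, scaled to the mapped alignments, in 91.0% to 94.1% of low values of a library. Replicates were not pooled.

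Groups followed the protocol, fraction and replicate of the labels, with the fraction of replicate 3 exchanged in NEB, NuG, SMTer and Tru4 as the study's feature counts give it. The quasi-likelihood test of edgeR 4.0.16 (R 4.3.3, TMM, filterByExpr) was used for counts, and limma 3.58.1 for SMTer, on median-centred log2(RPKM + 1), for genes with RPKM of at least 1 in at least 3 libraries. Benjamini-Hochberg adjustment ran over all genes tested, and an adjusted p under 0.05 counted as passed. Departures from Tru70 were interaction terms of the same kinds of fit. For shares a two-sided exact permutation test was used. Intervals and the limit of 3 counts cover counting error only. The procedure was tested on simulated data.

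Gene models came from GENCODE on GRCm38 and start windows from RefSeq. The levels per kb used the principal mRNA of each gene. Alternatives were other size factors, no filter, DESeq2 1.42.0, another pseudocount, no centring, the fractions as labelled, a replicate block and leaving out each replicate. Limma on RPKM in the count protocols was added after seeing the data. The members and lists were chosen with earlier results of these data known. Genes were named by a rule: the 5 with the highest Tru70 input RPKM, the 5 highest and 5 lowest Tru70 differences, those called alike in at least 6 protocols, the P-stalk genes and Rpsa, paralogs, Fau and Rack1, and those that departed from Tru70 or failed the filters. Others are marked as chosen later, except list examples. Some genes that the rule names are not reported here.

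Replicates of the same number are the same mouse by the study's methods. Their deviations from the group means correlated by 0.23 to 0.31 in SMTseq4, 0.15 to 0.23 in Tru4, 0.33 to 0.45 in SMTer, 0.08 to 0.16 in NuG, 0.04 to 0.09 in SMTseq0.25, 0.04 to 0.07 in Tru70 and −0.03 to 0.03 in NEB. The livers were from separate mice, while the libraries of a mouse share its RNA.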

Additional observations from a re-analysis of the deposited data

Results flagged for a closer look

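In SMTer, 2 genes had an IP minus input difference that departed from that in Tru70 by a test of the difference itself, on the log2(RPKM + 1) scale. Rpl12, a protein of the large subunit, departed by −0.79 (limma adjusted p = 0.0357). Its SMTer RPKM was 2.89, 1.22 and 3.2 in the input of mice 1, 2 and 3 and 1.12, 0.628 and 2.02 in IP, lower in 3 of 3 mice. Rps19bp1, which is no standard subunit, departed by −1.11 (limma adjusted p = 0.0339), with an SMTer RPKM of 2.46, 1.23 and 2.78 in input and 0.938, 0.591 and 2.34 in IP, again lower in 3 of 3 mice. The departures were no longer called when any replicate was left out, without the filter, without centring or with the fractions as labelled. With the replicate block their adjusted p was 0.0248 for Rpl12 and 0.0352 for Rps19bp1. Groups of 3 libraries were too small for a search for single outlying libraries.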

How the results depend on the processing

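The summed share of counts differed from the values above with the fractions as labelled, where IP minus input was 0.0586 percentage points in NEB and 0.0477 in NuG, and on nuclear protein-coding counts in NuG, where it was −0.0224. Numbers of genes called higher or lower changed as follows, and the cause was not tested. As labelled, NEB had 0 lower, NuG 0 lower, Tru4 0 higher and 0 lower, and SMTer 0 lower and 0 departing from Tru70. With library totals only, NEB had 3 higher and 0 lower, NuG 43 and 0, SMTseq0.25 22 and 0, SMTseq4 46 and 0, Tru4 21 and 1, and Tru70 16 and 1, and 7 departed upward from Tru70 in NuG. Without the filter, NEB had 2 lower, SMTer 0 lower and 0 departing, and NuG 4 departing downward. DESeq2 gave 1 higher and 2 lower in NEB, 6 and 4 in SMTseq0.25, and 3 higher in Tru70, where DESeq2's size factors in edgeR gave 2. Limma on RPKM with 0.1 added, chosen after seeing the data, gave 8 higher and 0 lower in SMTseq0.25, 0 lower in SMTseq4, 3 higher in Tru4, and 4 higher and 5 lower in Tru70. In SMTer no centring left 0 lower and 0 departing, and exon counts with edgeR left 1 lower. Under the replicate block NEB had 0 lower, Tru4 10 lower and Tru70 2 higher. SMTer had 1 higher, 41 lower and 9 departing downward, and NuG 1 departing downward. Of 64 calls of named genes, 61 stayed past the threshold.

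Leaving out 1 replicate gave 0 to 0 lower in NEB, 0 to 1 higher and 15 to 28 lower in NuG, 0 to 1 higher and 4 to 12 lower in SMTer with 0 to 1 departing, 1 to 2 higher and 1 to 1 lower in SMTseq0.25, 4 to 5 and 2 to 6 in SMTseq4, 1 to 4 and 3 to 20 in Tru4, and 0 to 2 and 2 to 4 in Tru70. Directions of named genes turned in NuG with totals only, to 1.08 for Rpl8, 0.0625 for Rps27l, 0.75 for Rpl36al, 0.60 for Rps27rt, 0.65 for Rps15 and 0.52 for Rplp0. They turned with limma on RPKM for Rpl10 (0.0825) and Rps7 (0.23) in SMTseq4 and Fau (0.52) in Tru4, and as labelled in SMTer for Rps2 (0.13), Rpl36 (0.0848) and Rpl7a (0.0536). DESeq2 and its size factors each left 48 of 51 named calls past the threshold. Leaving out a replicate lost more, 27 of 63 without replicate 1, 37 of 64 without replicate 2 and 37 of 61 without replicate 3, as did no filter (22 of 64) and totals only, with 25 of 51 lost besides those that turned.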

Other observations

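Introns of ribosomal protein genes often hold small nucleolar RNA genes, which guide modification of ribosomal RNA. A small nucleolar RNA gene lay within the span of 30 of the 84 genes. SMTer counts RNA without a poly(A) tail too. Its input RPKM was below that of Tru70 by a median of 0.34 on the log2 scale over 29 such hosts. The median was 0.64 below over 47 other ribosomal protein genes and 1.71 below over 4644 other coding genes. Only genes with a mean RPKM of at least 1 in Tru70 input entered, with no limit set in SMTer. That choice by itself favours values below those of Tru70, most for genes near the limit. RPKM here covers the whole gene span, so reads of introns and of the small RNAs are in these values. The difference between these sets was not tested.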
